A study of Homo sapiens with 12 samples.

Results

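The HOX cluster genes were the 39 protein-coding genes of the deposited table whose symbols are HOXA, HOXB, HOXC or HOXD followed by a number, out of 62754 gene identifiers in all. They were followed in 12 RNA sequencing libraries of PC9, a human lung adenocarcinoma line that depends on mutant EGFR, in 4 groups of 3 replicate cultures. The untreated WT group was TDP1 wild-type cells without drug. DTC were TDP1 wild-type cells kept for 7 days in 1 µM erlotinib, an inhibitor of the EGFR kinase, and are called drug-tolerant cells. DTEC, or drug-tolerant expanded cells, were TDP1 wild-type cells kept for 28 days at the same dose. The KO group was the untreated TDP1 knockout line KO2, the single knockout line in the table. All cells descend from a subclone of PC9, and the replicate cultures of a condition were split from one flask and then grown apart, so the p-values measure the spread between such cultures.

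HOX genes encode homeodomain transcription factors that lay down position along the body axis of the embryo. They lie in 4 clusters, and the number in each name is the paralog group, which follows the order of the genes along the chromosome: low numbers act toward the head, high numbers toward the tail and the tips of the limbs. Adult epithelia, the lung among them, keep part of this pattern, Polycomb complexes silence the remainder, and PBX and MEIS proteins bind DNA together with the HOX proteins.

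After 7 days of erlotinib the HOXA cluster was lower, while HOXB and HOXC held genes that were higher and genes that were lower. HOXA2, HOXA3, HOXA5, HOXA6 and HOXA11 all fell in DTC. HOXB3, HOXB5, HOXB6, HOXC6 and HOXC9 rose, and HOXB8, HOXB9 and HOXC13 fell, these last 3 not under every scaling. The calls of HOXC9, HOXB9 and HOXC13 were lost when some single libraries were left out. At day 28 the HOXA cluster was only partly back: HOXA2 and HOXA3 were still below untreated WT, HOXA9, which had not passed the test at day 7, had fallen, and HOXA13 had risen. HOXA13 was also the 1 HOX gene that passed the test in KO. HOXD genes were at or near 0 throughout.

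The start regions of 4 HOXA genes are shown because these members of the same cluster went different ways. HOXA2 fell at day 7 and stayed low, HOXA9 fell by day 28, HOXA11 fell at day 7 and shares its start region with an antisense gene that rose, and HOXA13 rose in DTEC and KO. The runs are the 250 bases before the first transcribed base, 5′ to 3′ on the gene's own strand, from RefSeq on GRCh38.p14, with matches to 3 motifs in capitals. The motifs, searched on both strands, were TAAT (the homeodomain core, which reads ATTA on the other strand), TGATNNAT (a joint PBX and HOX motif, ATNNATCA on the other strand) and TGANTCA (the AP-1 motif), and a TAAT match may overlap a TGATNNAT match.
HOXA2: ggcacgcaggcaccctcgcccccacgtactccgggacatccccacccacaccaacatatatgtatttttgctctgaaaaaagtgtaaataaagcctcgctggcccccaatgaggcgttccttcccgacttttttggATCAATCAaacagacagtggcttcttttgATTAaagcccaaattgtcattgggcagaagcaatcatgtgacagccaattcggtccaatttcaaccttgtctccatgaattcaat
HOXA9: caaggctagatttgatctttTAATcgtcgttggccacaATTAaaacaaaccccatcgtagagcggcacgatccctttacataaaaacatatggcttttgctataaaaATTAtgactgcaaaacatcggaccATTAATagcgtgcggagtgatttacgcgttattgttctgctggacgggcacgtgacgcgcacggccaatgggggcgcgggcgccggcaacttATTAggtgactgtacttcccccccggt
HOXA11: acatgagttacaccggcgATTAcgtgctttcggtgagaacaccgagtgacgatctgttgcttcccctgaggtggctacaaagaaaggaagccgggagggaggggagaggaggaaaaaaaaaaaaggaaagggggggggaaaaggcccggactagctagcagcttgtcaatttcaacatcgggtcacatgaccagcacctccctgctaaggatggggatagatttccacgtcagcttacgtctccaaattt
HOXA13: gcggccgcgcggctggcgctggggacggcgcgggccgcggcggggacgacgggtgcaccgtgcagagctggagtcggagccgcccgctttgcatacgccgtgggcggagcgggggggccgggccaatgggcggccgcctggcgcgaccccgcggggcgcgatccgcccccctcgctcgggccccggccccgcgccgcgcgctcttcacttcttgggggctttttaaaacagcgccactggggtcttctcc
The windows lie on the minus strand at chr7:27102684-27102933 (HOXA2), chr7:27165538-27165787 (HOXA9), chr7:27185233-27185482 (HOXA11) and chr7:27200092-27200341 (HOXA13). HOXA2 held 1 TGATNNAT match and 1 TAAT match, HOXA9 held 6 TAAT matches, HOXA11 held 1, and HOXA13 held no match to any of the 3 and 40 CpG dinucleotides, against 8 in HOXA2. Among all 35116 RefSeq promoter windows of this length, 47.4% held TAAT, 6.47% held TGATNNAT and 6.57% held TGANTCA. Of the 39 HOX genes, 20 had an entry, with 27 windows, of which 20 held TAAT, 3 held TGATNNAT and 0 held TGANTCA, although 7 of the windows belong to HOXA3 and those of HOXC4 and HOXC5 are identical. The median window held 19 CpG dinucleotides in the HOX genes and 11 in all genes. A match describes letters only and shows no binding.

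Levels are given as CPM, counts scaled to a common library size with TMM factors, which makes libraries comparable. A gene with 3 counts or fewer in a library was treated as at the counting floor, which the depth of the libraries (25572691 to 38373679 estimated counts) puts at 0.0782 to 0.117 CPM of plain library totals; the floor covers counting error only. By that rule 13 of the 39 genes were at the floor in every library and 9 had no count in any. The filter on low counts kept 21 genes for testing. Another 5 genes, HOXA4, HOXA7, HOXB2, HOXB4 and HOXC12, rose above the floor in at least 1 library but were not tested. In these bulk samples fewer cells expressing a gene and less RNA per cell cannot be told apart.

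The whole series sets the frame for these genes. TDP1 itself was at 28.1, 25.1 and 25.8 CPM in untreated WT and between 10.1 and 11.3 CPM in KO (log2 fold change -1.29, standard error, SE, 0.110, edgeR quasi-likelihood adjusted p 1.3e-05), so the KO libraries were lower but not at 0. TDP1 was also lower in wild-type DTC, at 12.7 to 15.7 CPM (-0.92, edgeR quasi-likelihood adjusted p 3.56e-06). The 6 epithelial markers examined (EPCAM, KRT8, KRT18, KRT19, CDH1 and EGFR) summed to 10388.5 to 10873 CPM for untreated WT, 4921 to 5532 for DTC, 8593 to 10677 for DTEC and 10746 to 11380 for KO, and their part in the HOX results was not tested. The 6 did not move alike in DTC, where 5 were called lower. CDH1 had a mean of 285 CPM in untreated WT and 298 in DTC, and KRT19 had 1190 and 946. Of 8 markers of blood, vessel and connective tissue cells, CD3E, COL1A2 and DCN were at the floor in every library and PTPRC was not tested. The sum of the 8 was 37.0 to 43.8 CPM for untreated WT, 64.0 to 68.6 for DTC, 102 to 110 for DTEC and 60.2 to 63.8 for KO, and its part in the HOX results was not tested. COL1A1 and PECAM1 made up nearly all of it and went opposite ways in DTC: COL1A1 had a mean of 8.30 CPM in untreated WT, 55.7 in DTC and 12.4 in DTEC, and PECAM1 had 32.0, 8.77 and 92.1. All libraries carry 1 batch label, so no comparison within batches could be made.

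The cluster on chromosome 7 (HOXA, minus strand, GRCh38) holds 11 of the genes, of which only HOXA10 was at the floor, with 1 count in 1 KO library. HOXA10 lies between HOXA9 and HOXA11, both of which were expressed. HOXB on chromosome 17 (48528526 to 48729178, minus strand) holds 10, of which HOXB1 and HOXB13 were at the floor. HOXC on chromosome 12 (53938765 to 54056030, plus strand) holds 9, with HOXC5 at the floor. HOXC5 shares 1081 exonic bases (59.9% of its own) with an unnamed gene and 611 (33.9%) with another. HOXA9 and HOXA10 share 397 (13.1%) and 368 (9.93%) with a different unnamed gene, and HOXA4 541 (31.0%) with yet another. Whether reads of these HOX genes were counted under the unnamed genes was not tested. A floor value of HOXC5 or HOXA10 thus need not mean that the gene was silent. All 9 genes of HOXD on chromosome 2 (176092891 to 176190907, plus strand) were at the floor, and the cluster's whole yield over 12 libraries was 2 counts, both of HOXD8 in DTC replicate 3.

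Per kilobase of exon, the comparison that allows genes to be ranked, HOXB7 led in untreated WT at a mean of 21.0 CPM per kb. HOXA3 at 8.33 and HOXC13 at 7.95 followed, then HOXB9 at 2.83 and HOXA2 at 1.86, and the other 16 tested genes lay between 0.108 and 1.32 CPM per kb. HOXA3 and HOXC13 did not differ beyond their spread, the HOXA3 libraries spreading from 27.7 to 43.5 CPM before division by length. In CPM not divided by length, a single gene carried most of each cluster in untreated WT. HOXA3 held 71.6% of the summed HOXA CPM, HOXB7 66.5% of HOXB and HOXC13 84.3% of HOXC.

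Summed over its 11 genes, the HOXA cluster stood at 43.7, 56.8 and 49.9 CPM in untreated WT, 12.9, 20.6 and 18.5 in DTC, 28.0, 30.1 and 30.4 in DTEC, and 54.0, 59.2 and 54.0 in KO. The means were 34.6% of untreated WT in DTC and 58.9% in DTEC, and neither group overlapped untreated WT. The HOXB sum was 48.2 ± 1.43 CPM (SD, n = 3) for untreated WT, 49.5 ± 10.1 for DTC, 52.5 ± 2.50 for DTEC and 53.9 ± 1.79 for KO, and the HOXC sum was 22.9 ± 1.25, 20.9 ± 1.25, 24.8 ± 1.06 and 23.9 ± 1.79. The fall in HOXA did not rest on HOXA3 alone: without it the cluster held 14.2 ± 1.59 CPM for untreated WT, against 6.66 ± 1.38 for DTC, 9.95 ± 0.750 for DTEC and 16.3 ± 0.396 for KO.

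**Figure D1:**
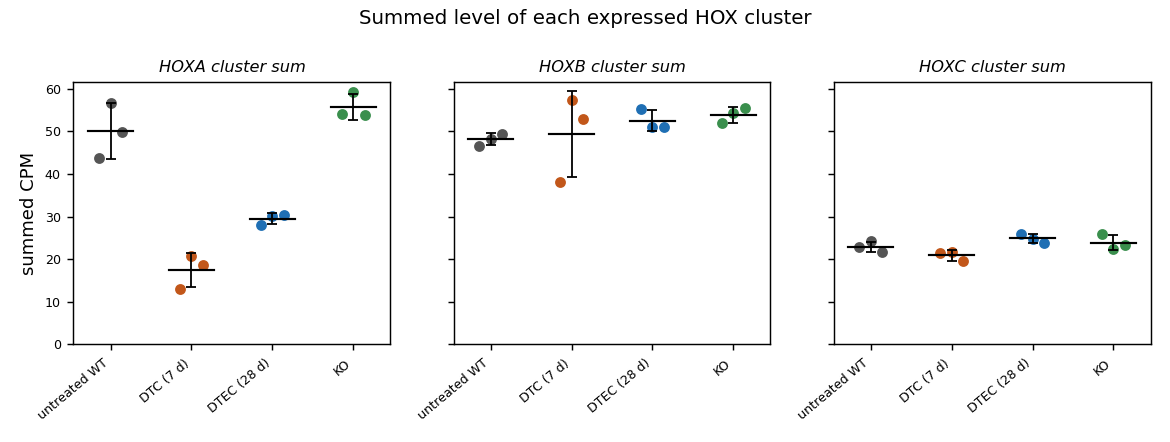
Summed CPM of the HOXA, HOXB and HOXC clusters in each library (points), with the group mean (horizontal line) and SD over 3 libraries (bars), in untreated WT, DTC, DTEC and KO. The HOXA panel shows DTC at 12.9 to 20.6 CPM and DTEC at 28.0 to 30.4 CPM, both below the 43.7 to 56.8 CPM of untreated WT.

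A share of HOX counts does not depend on how libraries are scaled to each other. HOXA took 38.7%, 43.9% and 41.2% of all HOX counts in the untreated WT libraries, 17.8%, 20.7% and 20.4% in DTC, 25.6%, 28.4% and 28.9% in DTEC, and 41.0%, 43.6% and 40.7% in KO. The 3 groups of wild-type cells did not overlap, and each pair of them gave 0.1 in an exact permutation test, two-sided, which is the lowest p possible with groups of 3. KO overlapped untreated WT (exact permutation p 1). HOXB took the larger share in drug, at 56.1% ± 3.12 (SD, n = 3) for DTC and 49.1% ± 1.32 for DTEC against 39.8% ± 2.13 without it. The HOXC share was higher too, at 24.3% ± 4.69 for DTC and 23.2% ± 0.534 for DTEC against 18.9% ± 1.11. Shares of a whole are tied together, so a lower HOXA share by itself raises the others, and these shares show no gain in HOXB or HOXC level.

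The first comparison asks which HOX genes differed after 7 days of erlotinib. Against untreated WT, 14 of the 21 tested genes were called in DTC at an adjusted p under 0.05, 5 higher and 9 lower, where 67.3% of all 17115 tested genes were called (34.0% higher and 33.3% lower). At 2-fold or more 10 were called, where the share of all genes was 36.2%. The groups did not overlap for 15 of the 21, against 68.9% of all genes. The share of HOX genes called was thus near that of all genes; the clusters differed in direction. In HOXA 6 of 8 tested genes fell and 0 rose, with a median log2 fold change of -1.47 over the 8. In HOXB 3 rose and 2 fell of 6, with a median of 0.27, and in HOXC 2 rose and 1 fell of 7, with a median of 0.49. The median over all genes tested was 0.06.

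Scaling between libraries shifted this balance. With library totals alone, or with upper-quartile scaling, the HOX split in DTC became 7 higher and 6 lower, and 11 of the 14 calls remained. HOXB8, HOXB9 and HOXC13 lost their calls, and HOXC4 and HOXC10 gained one. Over all genes the higher share of the calls moved from 50.5% to 68.4% and 65.0%, and the median log2 fold change from 0.06 to 0.41 and 0.34. The 6 HOXA genes that fell were called lower under every scaling and without any single library.

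HOXA2 and HOXA3 belong to the paralog groups that act toward the head end, where they pattern the hindbrain and the pharyngeal arches. HOXA2 was at 5.47, 4.18 and 4.10 CPM in untreated WT, 1.08, 1.41 and 1.35 in DTC, 1.67, 2.14 and 2.28 in DTEC, and 3.51, 4.08 and 3.35 in KO. All 6 erlotinib libraries lay below the untreated ones of either genotype. Its log2 fold change was -1.83 at day 7 (SE 0.207, adjusted p 2.34e-06) and -1.17 at day 28 (SE 0.200, adjusted p 0.000217). DTEC exceeded DTC by 0.66 (SE 0.212, adjusted p 0.0165), a call lost under 6 alternatives, among them leaving out DTC replicate 1, DTEC replicate 2 or DTEC replicate 3 (adjusted p 0.0576, 0.0524 and 0.0765).

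HOXA3, the most abundant gene of its cluster, was at 27.7, 43.5 and 36.5 CPM in untreated WT, 7.40, 12.5 and 12.3 in DTC, 18.8, 19.4 and 20.5 in DTEC, and 38.1, 42.5 and 37.7 in KO. The 3 wild-type groups did not overlap, with DTC lowest and DTEC between. The log2 fold change was -1.74 in DTC (SE 0.188, adjusted p 1.6e-06), then -0.87 in DTEC (SE 0.182, adjusted p 0.0011) and 0.87 between DTEC and DTC (SE 0.187, adjusted p 0.00135).

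In the middle of the cluster, HOXA5 is needed for lung and airway development in the mouse. It was at 1.52, 1.72 and 0.894 CPM in untreated WT, 0.304, 0.353 and 0.176 in DTC, 0.974, 1.22 and 0.687 in DTEC, and 1.12, 1.26 and 1.24 in KO. DTC was below every other group, and DTEC and KO overlapped untreated WT. The change in DTC, -2.30 (SE 0.375, adjusted p 8.37e-05), had the largest size of any tested HOX gene in any of the 4 comparisons; these DTC values rest on 9, 12 and 6 counts. HOXA5 was 1.77 higher in DTEC than in DTC (SE 0.381, adjusted p 0.00129).

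HOXA6, its neighbour, was at 0.448, 0.641 and 0.779 CPM in untreated WT, 0.169, 0.265 and 0.147 in DTC, 0.365, 0.764 and 0.247 in DTEC, and 0.667, 1.10 and 1.49 in KO. DTC lay below untreated WT and KO but overlapped the scattered DTEC libraries. It fell by 1.66 in DTC (SE 0.513, adjusted p 0.0103). HOXA4 had 4, 2 and 4 counts in untreated WT, 0 in all DTC and all KO libraries, and 3, 3 and 4 in DTEC. HOXA7 had 4 counts in each untreated WT library and 0 to 9 elsewhere. Neither was tested.

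The posterior HOXA genes went different ways. HOXA9, best known for its role in leukaemia and blood stem cells, was at 2.75, 1.96 and 2.31 CPM in untreated WT, 1.96, 2.65 and 2.14 in DTC, 0.548, 0.802 and 0.852 in DTEC, and 2.15, 2.14 and 2.82 in KO. The 3 DTEC libraries stood apart below the other 9, which overlapped. HOXA9 fell in DTEC by 1.67 against untreated WT (SE 0.254, adjusted p 8.38e-05) and by 1.61 against DTC (SE 0.255, adjusted p 0.000104), and was not called in DTC (adjusted p 0.845).

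HOXA11, which patterns the forearm and the uterus, was at 2.93, 2.02 and 2.42 CPM in untreated WT, 0.642, 1.44 and 1.17 in DTC, 1.61, 2.14 and 1.32 in DTEC, and 3.16, 3.04 and 2.90 in KO. DTC did not overlap untreated WT, and DTEC overlapped both. It fell in DTC by 1.17 (SE 0.283, adjusted p 0.0021), and the value in DTEC, -0.55, was not called (SE 0.275, adjusted p 0.108).

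HOXA13 ends the cluster and acts in the digits, the hindgut and the genital tract. It was at 0.567, 0.438 and 0.635 CPM in untreated WT, 0.710, 0.736 and 0.557 in DTC, 1.74, 1.76 and 2.20 in DTEC, and 2.53, 2.62 and 1.94 in KO. DTEC and KO lay above all untreated WT and DTC libraries, and those 2 low groups overlapped each other. The log2 fold change was 1.78 in DTEC against untreated WT (SE 0.263, adjusted p 6.27e-05), 1.51 against DTC (SE 0.258, adjusted p 0.000211) and 2.09 in KO (SE 0.262, adjusted p 0.00042). In DTC it was 0.28 and not called (SE 0.279, adjusted p 0.391). The rise in DTEC and the rise in KO are both measured against the same untreated WT libraries, and were called under every alternative tried. Those untreated WT values rest on 19, 13 and 22 counts.

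The ratio of HOXA13 to HOXA9 counts, which no scaling affects, was 0.207, 0.224 and 0.275 in untreated WT, 0.362, 0.278 and 0.260 in DTC, 3.17, 2.19 and 2.58 in DTEC, and 1.17, 1.23 and 0.686 in KO. DTEC was above all other libraries and KO above untreated WT. The pair was chosen after the values of both genes were seen, so the ratio is a description. Both genes moved in DTEC, whereas HOXA9 in KO stayed within the untreated WT range except for KO replicate 3.

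**Figure D2:**
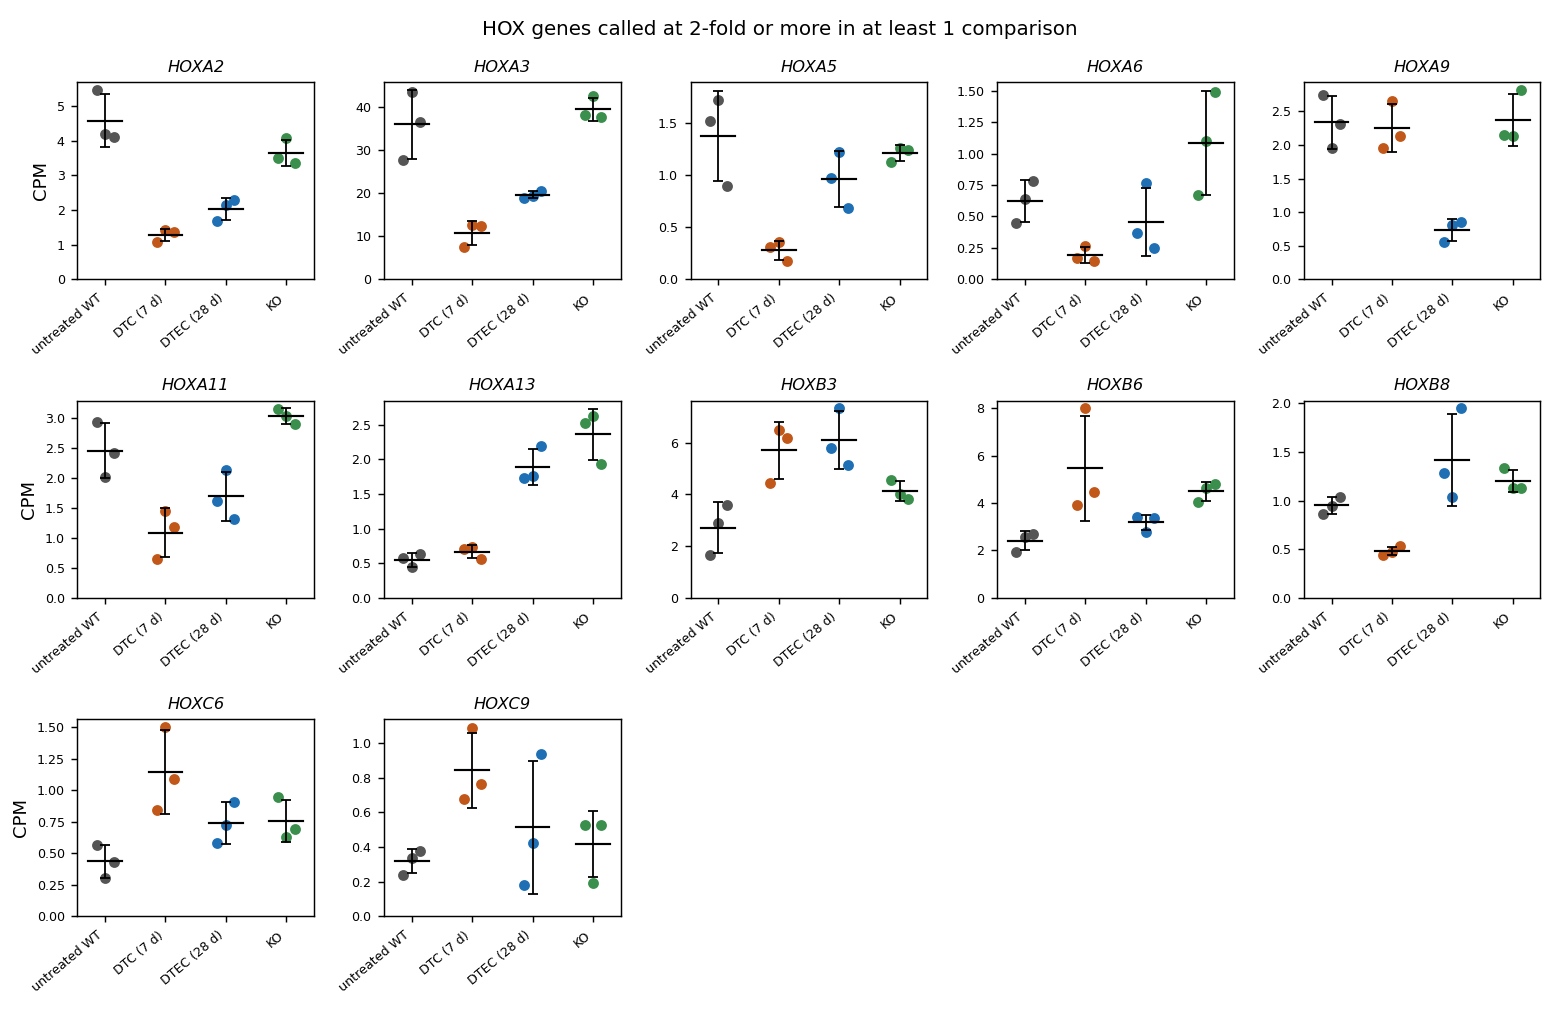
CPM in each library (points) of 12 HOX genes called at 2-fold or more in at least 1 comparison, with the group mean (horizontal line) and SD over 3 libraries (bars); each panel has its own axis from 0. HOXA2, HOXA3, HOXA5, HOXA6 and HOXA11 are lowest in DTC by group mean, HOXA9 is lowest in DTEC, and HOXA13 is high in DTEC (1.74 to 2.20 CPM) and KO (1.94 to 2.62 CPM).

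In the HOXB cluster HOXB3, HOXB5 and HOXB6 rose in DTC, HOXB8 and HOXB9 fell, and HOXB7 was not called. HOXB3 was at 1.64, 2.90 and 3.59 CPM in untreated WT, 4.44, 6.47 and 6.18 in DTC, 5.81, 7.33 and 5.14 in DTEC, and 4.56, 4.0 and 3.82 in KO. Both erlotinib groups were above untreated WT and overlapped each other. HOXB3 rose by 1.07 at day 7 (SE 0.250, adjusted p 0.00165) and by 1.16 at day 28 (SE 0.250, adjusted p 0.00138).

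HOXB6 was at 1.94, 2.57 and 2.69 CPM in untreated WT, 3.91, 8.01 and 4.46 in DTC, 3.39, 2.79 and 3.35 in DTEC, and 4.04, 4.61 and 4.81 in KO. All 9 other libraries lay above the 3 of untreated WT, and DTC replicate 2 was far above its group. It rose by 1.19 in DTC (SE 0.247, adjusted p 0.000662) and was lower in DTEC than in DTC by 0.78 (log2 fold change -0.78, SE 0.243, adjusted p 0.0138), a call lost without DTC replicate 2 (-0.44, adjusted p 0.0797). In KO the log2 fold change was 0.91 with an adjusted p of 0.0558.

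HOXB3 and HOXB6 cannot be fully separated. They share 433 exonic bases in GENCODE 29, and their estimated counts carried decimals while the sum of the 2 was whole in 12 of 12 libraries, within 0.001. Taken as 1 gene, an alternative chosen after the data had been seen, they rose by 1.17 at day 7 (SE 0.204, adjusted p 0.000145) and by 0.88 at day 28 (SE 0.204, adjusted p 0.00238). The difference between DTEC and DTC was then -0.29 (adjusted p 0.227), and KO was 0.77 higher than untreated WT (adjusted p 0.0488).

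HOXB5, which acts in lung branching in the mouse, had 2.51, 2.70 and 2.88 CPM in untreated WT and 3.08, 5.39 and 4.72 in DTC, and rose by 0.71 (SE 0.218, adjusted p 0.0102). At 3.03 ± 0.0942 CPM (SD, n = 3) in DTEC it was 0.54 below DTC (log2 fold change -0.54, SE 0.216, adjusted p 0.047), but those 2 groups overlapped and the call was lost without DTC replicate 2 or 3 or any DTEC replicate (adjusted p 0.0712 to 0.154). HOXB7, the leading HOXB gene, was not called in any comparison: its mean was 32.0 ± 0.474 CPM for untreated WT, 28.3 ± 6.55 for DTC, 32.6 ± 1.10 for DTEC and 33.6 ± 1.09 for KO. DTC replicate 1, at 20.8 CPM, was the low one.

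HOXB8 was at 0.866, 0.944 and 1.04 CPM in untreated WT, 0.439, 0.471 and 0.528 in DTC, 1.28, 1.03 and 1.95 in DTEC, and 1.33, 1.13 and 1.13 in KO. DTC was below all other groups. It fell by 0.98 in DTC (SE 0.307, adjusted p 0.0112; 0.0827 with library totals alone and 0.0602 with upper-quartile scaling) and was 1.57 higher in DTEC than in DTC (SE 0.301, adjusted p 0.000542). HOXB9, a gene of the thoracic region, fell in DTC from 7.30 ± 0.572 to 4.81 ± 0.285 CPM (SD, n = 3; log2 fold change -0.60, SE 0.202, adjusted p 0.0166). That call was lost without untreated WT replicate 1, DTC replicate 2 or DTC replicate 3 (adjusted p 0.0620, 0.0693 and 0.0527) and its adjusted p was 0.289 with library totals alone and 0.177 with upper-quartile scaling. The untested HOXB2 and HOXB4 reached at most 7 and 8 counts.

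In the HOXC cluster the rises lay in genes of low level. HOXC6 was at 0.567, 0.304 and 0.433 CPM in untreated WT, 0.845, 1.50 and 1.08 in DTC, 0.579, 0.726 and 0.907 in DTEC, and 0.948, 0.631 and 0.691 in KO. Each of the other groups lay above untreated WT, and only DTC was called, at 1.38 (SE 0.360, adjusted p 0.00349). HOXC6 shares 484 exonic bases with HOXC4, whose DTC value of 0.81 was not called (SE 0.356, adjusted p 0.057).

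HOXC9 was at 0.239, 0.337 and 0.375 CPM in untreated WT, 0.676, 1.09 and 0.762 in DTC, 0.183, 0.420 and 0.934 in DTEC, and 0.526, 0.194 and 0.525 in KO. DTC lay above untreated WT, while the DTEC libraries spread over both. The rise in DTC, 1.40 (SE 0.544, adjusted p 0.0337), was lost without any 1 of the untreated WT replicates or DTC replicate 2 (adjusted p 0.0530 to 0.0962).

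HOXC13, which controls keratin genes of hair and nail, made up most of the cluster. It was at 18.6, 21.0 and 18.2 CPM in untreated WT, 16.7, 14.9 and 13.0 in DTC, 21.4, 20.8 and 18.0 in DTEC, and 21.2, 18.5 and 19.3 in KO. DTC was the low group, without overlap, but its log2 fold change of -0.37 (SE 0.119, adjusted p 0.0124) went to -0.02 with library totals alone and to -0.09 with upper-quartile scaling (adjusted p 0.899 and 0.524). It was lost too without untreated WT replicate 2, DTC replicate 2 or DTC replicate 3 (adjusted p 0.0748, 0.0561 and 0.118). HOXC13 was 0.43 higher in DTEC than in DTC (SE 0.119, adjusted p 0.00703). That call was lost without DTC replicate 3 (adjusted p 0.0566), with library totals alone (0.24, adjusted p 0.0971) and with upper-quartile scaling (0.26, adjusted p 0.0735). HOXC8, HOXC10 and HOXC11 passed no test, with group means of 0.391 to 0.574, 1.17 to 1.57 and 0.432 to 0.957 CPM. The untested HOXC12 had at most 8 counts.

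The second comparison sets day 28 against untreated cells. In DTEC 5 of the 21 tested genes were called, 2 higher (HOXA13 and HOXB3) and 3 lower (HOXA2, HOXA3 and HOXA9), where 52.3% of all tested genes were called (26.0% higher and 26.3% lower). At 2-fold or more there were 4, against 19.9% of all genes, and the groups did not overlap for 9, against 62.4%. The median log2 fold change was -0.54 over the 8 HOXA genes, 0.29 over the 6 HOXB genes and 0.34 over the 7 HOXC genes, beside 0.02 over all genes. No HOXC gene was called. With library totals alone the count was 8, 5 higher and 3 lower, with HOXB8, HOXC4 and HOXC6 added.

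Between the drug-exposed groups, 10 genes were called in DTEC against DTC, 7 higher and 3 lower, where 55.4% of all tested genes were called (28.8% higher and 26.6% lower). At 2-fold or more there were 5, against 22.4%, and 9 did not overlap, against 56.6%. In HOXA 5 genes were higher in DTEC (among them HOXA2, HOXA3, HOXA5 and HOXA13) and 1 lower (HOXA9), with a median of 1.02 over the 8 tested, beside -0.01 over all genes. Outside HOXA, HOXB8 and HOXC13 were higher and HOXB5 and HOXB6 lower. The comparisons of DTC, DTEC and KO with untreated WT share the same 3 untreated libraries, and this one shares its libraries with the first and second.

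**Figure D3:**
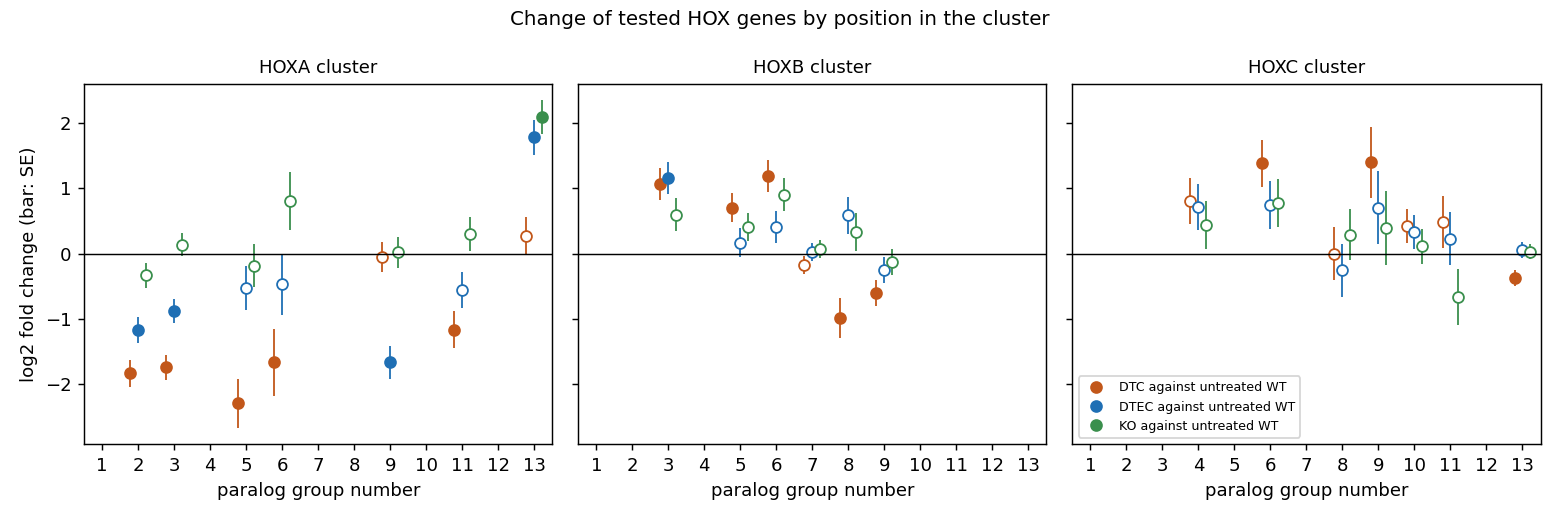
Log2 fold change (bars, SE) of 20 tested HOX genes against untreated WT, by paralog group number within the HOXA, HOXB and HOXC clusters, for DTC, DTEC and KO. Filled points passed an adjusted p of 0.05 and open points did not; in HOXA the filled DTC points all lie below 0, and HOXA13 stands at 1.78 in DTEC and 2.09 in KO.

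The comparison of untreated KO with untreated WT called 1 of 21 HOX genes, HOXA13, higher, where 4.31% of all tested genes were called (2.76% higher and 1.55% lower), and 1 at 2-fold or more, against 1.30%. The groups did not overlap for 7 HOX genes, against 35.7% of all genes. Among the other 6, HOXB3, HOXB6, HOXB8 and HOXC6 had all KO libraries above untreated WT and HOXA2 all below, without a call. The median over the 21 genes was 0.29, beside -0.01 over all genes. The number of genes called in KO over the whole table fell from 738 to between 321 and 426 when any 1 of the 6 libraries was left out. HOXA13 was called each time, with a log2 fold change of 1.99 to 2.25 over all alternatives and an adjusted p of 4.14e-08 to 0.00367.

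Long noncoding and antisense genes lie among the HOX genes and are made from the opposite strand in most cases. Of 20 such genes listed, 18 were in the table and 6 passed the filter, with 4 called in DTC (3 higher and 1 lower), 5 in DTEC (4 higher and 1 lower) and 0 in KO; the medians over the 6 were 0.51, 0.79 and 0.30. Of all tested genes, 67.3% were called in DTC, 52.3% in DTEC and 4.31% in KO. HOTAIR (chromosome 12, 53962308 to 53974956, minus strand), which lies between HOXC12 and HOXC11, overlaps the start of HOXC11 and is known for its link to Polycomb, was at 0.299, 0.776 and 0.635 CPM in untreated WT, 2.70, 3.62 and 2.87 in DTC, 2.16, 1.45 and 1.79 in DTEC, and 0.737, 0.680 and 0.968 in KO. Both erlotinib groups stood clear of both untreated groups. It rose by 2.43 at day 7 (SE 0.317, adjusted p 9.73e-06) and by 1.67 at day 28 (SE 0.320, adjusted p 0.000577), while HOXC11 was not called.

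In RefSeq, HOXA11-AS starts 176 bases from the start of HOXA11 and runs away from it, so the window printed for HOXA11 holds the first base of the antisense gene. In GENCODE 29 its span (chromosome 7, 27184507 to 27189298, plus strand) reaches into HOXA11. It was at 0.478, 0.809 and 0.433 CPM in untreated WT, 1.09, 2.12 and 1.50 in DTC, 1.49, 1.25 and 1.37 in DTEC, and 0.948, 0.583 and 1.25 in KO. DTC and DTEC were above untreated WT, and KO overlapped it. It rose by 1.46 at day 7 (SE 0.362, adjusted p 0.00253) and by 1.27 at day 28 (SE 0.364, adjusted p 0.00925), whereas HOXA11 fell by 1.17 at day 7.

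Per HOXA11 count there were 0.163, 0.400 and 0.179 HOXA11-AS counts in untreated WT, 1.69, 1.47 and 1.28 in DTC, 0.926, 0.583 and 1.04 in DTEC, and 0.300, 0.191 and 0.432 in KO. The 3 wild-type groups did not overlap; this pair too was chosen after its values were seen, and the ratio is a description. Whether the counting used strand is not given in the sources used here, so reads of an antisense gene and of a coding gene it overlaps may not be separated.

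The other called noncoding genes, chosen after their values were seen, were HOXA10-AS, HOXA-AS2 and HOXC13-AS. HOXA10-AS fell from 8.37 ± 0.493 CPM (SD, n = 3) without drug to 3.24 ± 0.272 at day 7 and 3.80 ± 0.670 at day 28 (log2 fold change -1.37 and -1.13, SE 0.150 and 0.149, adjusted p 1.7e-06 and 2.15e-05), although HOXA10 itself was at the floor. It lies within the span of HOXA9, a gene that was not called at day 7 and was lower at day 28. HOXA-AS2, within the span of HOXA3, had 8.84 ± 0.821 CPM without drug and 7.80 ± 2.28 at day 7, and rose to 16.7 ± 0.931 at day 28 (0.92, SE 0.170, adjusted p 0.000423), where HOXA3 was lower than in untreated WT. HOXC13-AS rose from 2.66 ± 0.210 CPM to 5.18 ± 0.550 in DTC and 4.20 ± 0.202 in DTEC (0.96 and 0.66, SE 0.158 and 0.159, adjusted p 8.85e-05 and 0.00308). HOTAIRM1 and HOXB-AS3 were listed at 0 in all 12 libraries.

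**Figure D4:**
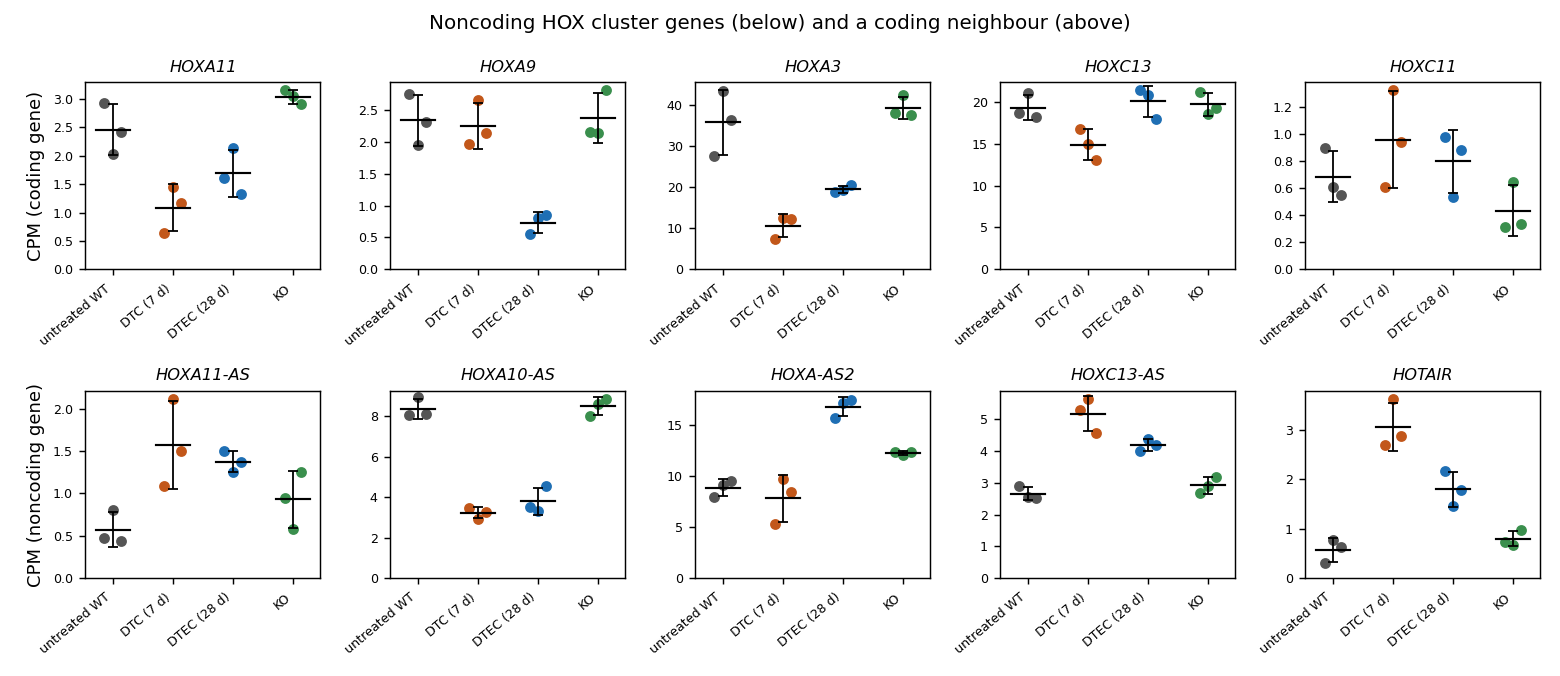
CPM in each library (points) of 5 noncoding genes of the HOX clusters (lower row) below a coding gene near each (upper row), with the group mean (horizontal line) and SD over 3 libraries (bars); each panel has its own axis from 0. HOXA11 and HOXA11-AS differ in direction in DTC, and HOTAIR is at 2.70 to 3.62 CPM in DTC against 0.299 to 0.776 CPM in untreated WT.

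HOX proteins act with TALE homeodomain cofactors. Of 11 listed, 10 were tested: 3 rose and 5 fell in DTC, 5 rose and 1 fell in DTEC, and 1 rose in KO, against 67.3%, 52.3% and 4.31% of all genes, with medians of -0.23 in DTC and 0.37 in DTEC over the 10. MEIS3 rose most in DTC (2.63, SE 0.366, adjusted p 1.84e-05) and MEIS1 in DTEC (1.10, SE 0.195, adjusted p 0.000309), while PBX3 fell in both (-1.25 and -1.17, SE 0.164 for each, adjusted p 1.06e-05 and 3.89e-05).

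Polycomb and Trithorax complexes hold HOX genes off and on. Of 24 Polycomb genes, all tested, 3 rose and 14 fell in DTC (67.3% of all genes called), led by PHC2 (-1.71, SE 0.0858, adjusted p 8.7e-10) and PHF19 (-1.64, SE 0.105, adjusted p 7.82e-09), and 5 rose and 8 fell in DTEC (52.3% of all genes called), led by CBX7 (1.19, SE 0.118, adjusted p 1.67e-06) and EZH2 (-0.97, SE 0.0987, adjusted p 2.25e-06). In KO 2 of the 24 fell, EED and PHC2, where 4.31% of all genes were called, 1.55% lower. EED lost its call without untreated WT replicate 1 or KO replicate 2 (edgeR quasi-likelihood adjusted p 0.0600 and 0.0707). PHC2 lost its call without any 1 untreated WT replicate or KO replicate 1 or 2 (adjusted p 0.0553 to 0.0982). Of 14 Trithorax genes and H3K27 demethylases, 2 rose and 9 fell in DTC and 2 rose and 4 fell in DTEC, against the same 67.3% and 52.3%, with WDR5 lower in both (-1.81 and -1.03, SE 0.0880 and 0.0859, adjusted p 6.55e-10 and 3.3e-07). Of the 14 genes of the Trithorax list, 0 were called in KO. The medians over the Polycomb list were -0.33 in DTC and -0.04 in DTEC, and over the Trithorax list -0.51 and -0.11.

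Retinoic acid and CDX proteins switch on HOX genes in the embryo, and CTCF marks boundaries within the clusters. Of 11 such regulators, 8 were tested: 2 rose and 5 fell in DTC, and 3 rose and 3 fell in DTEC, against 67.3% and 52.3% of all genes, with medians of -1.05 and 0.10. RARB, a retinoic acid receptor and itself a target of retinoic acid, was at 0.388, 0.202 and 0.461 CPM in untreated WT, 7.47, 11.3 and 8.87 in DTC, 3.68, 1.95 and 2.42 in DTEC, and 1.09, 1.04 and 0.885 in KO. The 3 other groups were all above untreated WT. RARB rose by 4.68 at day 7 (SE 0.316, adjusted p 1.31e-08) and by 2.91 at day 28 (SE 0.320, adjusted p 4.49e-06). Its untreated WT values rest on 13, 6 and 16 counts. The other listed receptors were more abundant. RARA had means of 33.8 CPM in untreated WT, 11.2 in DTC and 26.0 in DTEC, and RARG had 100, 50.9 and 105. RXRA had 154, 70.2 and 169, while RXRB was not lower in DTC, at 38.0, 43.9 and 58.7. Retinoic acid signalling itself was not tested. CYP26B1, which breaks retinoic acid down, fell in both (-1.91 and -1.21, SE 0.116 and 0.112, adjusted p 5.05e-09 and 9.55e-07), and the related CYP26A1 was 1.44 higher in DTEC (SE 0.214, adjusted p 6.74e-05). In KO 2 of the 8 rose, RARB (1.48, edgeR quasi-likelihood adjusted p 0.0247) and CYP26A1 (0.95, adjusted p 0.0222). Of all tested genes, 4.31% were called in KO, 2.76% higher. Both calls were lost without untreated WT replicate 1 or 2 or KO replicate 1. RARB's was also lost without KO replicate 2 and CYP26A1's without KO replicate 3 (adjusted p 0.0569 to 0.0943 over these fits).

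Of 14 genes listed beside the clusters, 8 were tested, with 4 higher and 3 lower in DTC, 4 higher and 2 lower in DTEC and 0 called in KO, against 67.3%, 52.3% and 4.31% of all genes, and medians of 0.35 in DTC and 0.43 in DTEC. CALCOCO1, near HOXC, rose by 3.49 at day 7 (SE 0.110, adjusted p 2.35e-11) and by 2.57 at day 28 (SE 0.107, adjusted p 8.63e-10). CALCOCO2, near HOXB, rose by 0.75 at day 7 (SE 0.119, adjusted p 6.19e-05) and by 1.09 at day 28 (SE 0.120, adjusted p 4.18e-06).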

How the data were processed

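RNA sequencing of poly(A) RNA (TruSeq Stranded mRNA, 101 bp paired-end reads, 1 batch, per the labels' protocols) was measured in 12 cultures. The authors deposited estimated counts per gene (expected counts, mostly whole numbers). RSEM 1.3.1, Bowtie2 2.5.2, DESeq2 1.40.2 and GRCh38 are named in the submitters' processing notes without role or order. The annotation release, the strand setting and any filters are not given in the sources used here. Groups came from the labels.

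Counts were rounded, filtered with filterByExpr, scaled by TMM and fitted over all 12 libraries and all genes by edgeR's quasi-likelihood test (edgeR 4.0.16, limma 3.58.1, R 4.3.3), with Benjamini-Hochberg adjustment over 17115 genes. The fit was tested on simulated data with few genes changed, in DTC alone and equally in both directions. That test cannot check the scaling where most genes are called, as in the DTC comparison. Alternatives were library totals, upper-quartile scaling, DESeq2 1.42.0, no filter, unrounded values, a replicate block, the compared libraries alone and leaving out each library. Coordinates and exon lengths came from GENCODE 29, which held 58261 of 62754 identifiers.

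The HOX genes and all gene lists were chosen with earlier results of these data known. HOX genes called at 2-fold or more are given in every library, the others by library, group or range; 1 HOX gene and 1 cofactor, kept in the counts, are not reported here. From each list the 2 called genes with the largest change in DTC and in DTEC could be named. Genes named for KO, and the means of the other retinoid receptors, were chosen after their values were seen. Groups of 3 were not tested for outlying samples. Cluster shares used two-sided exact permutation tests. Replicates of every group differed by more than sampling noise. In DTC, replicate 1 stood furthest from its group in summed HOX CPM, at 72.5 against 99.8 and 91.0 for replicates 2 and 3. Without it all 14 HOX calls in DTC remained.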

Additional observations from a re-analysis of the deposited data

Results flagged for a closer look

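In 9 HOX genes the level at day 28 of erlotinib differed from that at day 7. The test was edgeR's quasi-likelihood test of DTEC against DTC with 3 libraries each. The labels give no day for the untreated cultures, so drug exposure and time in culture cannot be told apart. Of all 17115 tested genes, 55.4% were called in that comparison, so such calls were common throughout. HOXA5 (1.77 on the log2 scale), HOXB8 (1.57), HOXA13 (1.51), HOXA3 (0.87), HOXA2 (0.66) and HOXC13 (0.43) were higher at day 28. HOXA9 (-1.61), HOXB6 (-0.78) and HOXB5 (-0.54) were lower. For HOXA3, HOXA5, HOXA9, HOXA13 and HOXB8 the call was kept under every alternative tried. For HOXA2, HOXB5, HOXB6 and HOXC13 it was lost under at least 1.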

How the results depend on the processing

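Of 30 calls of a HOX gene in a comparison, 22 were kept under every alternative, 8 were lost under at least 1 and 0 changed direction. The number of HOX genes called in DTEC against untreated WT was 8 with library totals alone. In KO it was 2, with HOXB6 added, under library totals alone, DESeq2, no filter, the replicate block and the compared libraries alone. Over all genes, KO calls numbered 1147 with no filter, 2656 with the compared libraries alone and 321 to 426 when 1 library was left out, against 738. With 1 library left out, HOX calls numbered 11 to 15 for DTC, 5 to 6 for DTEC, and 8 to 11 for DTEC against DTC. HOXA4, too low for the filter, was called lower in DTC with DESeq2 and with no filter. Same-numbered replicates correlated at -0.03 to 0.18 in their deviations from group means, with 4 of 18 pairs above 0.1. Replicates of different number correlated at -0.19 to 0.12, with 2 of 36 pairs above 0.1. The cultures may thus be weakly linked by number, which the main fit left out. With the replicate block the HOX calls numbered 14, 5, 9 and 2 in DTC, DTEC, DTEC against DTC, and KO. Over all genes the block gave 11775, 9255, 9732 and 887 calls, against 11520, 8955, 9480 and 738. Low counts limit HOXA5, HOXA6, HOXC6 and HOXC9, among others. They also limit HOXA13 in untreated WT and DTC (13 to 25 counts) and HOXB8 in DTC (13 to 18 counts). Counts near the floor leave changes in HOXD not detectable at this depth.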
